A study of Gallus gallus with 4 samples.

Results

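The genes described here are the cadherins (CDH), protocadherins (PCDH), nectin-like CADM proteins, claudins (CLDN), desmogleins, desmocollins and plakophilins (DSG, DSC, PKP), connexins (GJA, GJB, GJC, GJD) and the alpha and delta catenins (CTNNA, CTNND). They were chosen by name, as every gene whose symbol begins with one of these stems followed by a digit, without CTNNB1. For CTNNA and CTNND no digit was needed. The genes so chosen number 67 of 15386. No desmocollin symbol was among them. Cells of an epithelium hold each other by cadherins in adherens junctions and by desmosomal cadherins in desmosomes. Catenins and plakophilins tie these cadherins to the cytoskeleton, claudins seal the space between cells, and connexins form the gap junctions through which small molecules pass. In the feather follicle these proteins join the cells of the epithelium, and cadherins and gap junctions also join the mesenchymal cells of the dermal papilla that lies at its base.

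RNA came from untreated White Leghorn chickens, from the complex of the dermal papilla of dorsal feathers in their growing stage. There were 2 libraries of the anterior side and 2 of the posterior side. No label ties a library to a bird or says how many birds were pooled, so the p-values reflect the spread among these libraries alone, and that spread may be technical. Values are RPKM, reads scaled to gene length and to the reads of the library, so that levels can be compared between genes. Differences are given as anterior minus posterior on the scale log2(RPKM + 1), which understates the change of low genes, with the standard error (SE) from limma. In whole tissue, fewer cells of a type and less RNA per cell cannot be told apart.

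Posterior library 1 stood apart from the rest. All 10 smooth muscle markers found were highest there, and their summed level was 339 and 354 RPKM in the anterior libraries and 4237 and 274 RPKM in posterior libraries 1 and 2. Its depth relative to anterior library 1, estimated from the spacing of low RPKM values, was 77.1%, and that of the others was 99.6% to 99.9%. The 15 epithelial markers, led by keratins and not counting CDH1, summed to 4429 and 1720 RPKM in anterior libraries 1 and 2 and to 2142 and 1961 RPKM in posterior libraries 1 and 2, and none was at 0 in any library. The 10 endothelial markers, not counting the genes described here, summed to 158 and 195 RPKM on the anterior and 163 and 188 RPKM on the posterior side. Of the dermal papilla and fibroblast markers 15 were found. They summed to 2218 and 1999 RPKM in the anterior libraries, against 2020 and 2242 RPKM in the posterior libraries. LUM, COL1A2 and COL3A1 led these sums. Of the 14 tested, 9 had positive differences (7 after median ratio scaling) and 5 negative ones. CORIN had 6.86 and 2.13 RPKM on the anterior side and 0.308 and 0.562 RPKM on the posterior side. ALPL had 37.2 and 33.7 RPKM on the anterior side and 3.46 and 19.3 RPKM on the posterior side. Markers of the labelled tissue, of an epithelium and of vessels were thus all found. Melanocyte markers, 9 of which were found, summed to 42.7 and 45.8 RPKM on the anterior side and 21.7 and 34.1 RPKM on the posterior side, and all 7 tested had positive differences (6 after median ratio scaling, 4 after quantile normalization). Their part in the differences of the junction genes was not tested.

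One name goes against its family. CDH1-A begins with the cadherin stem, but the NCBI RefSeq gene table lists it as a synonym of FZR1, which encodes an activator of the anaphase-promoting complex in the cell cycle and no cadherin. GJC1 is listed there as a synonym of GJC3, another connexin. The other 65 names are current symbols. Counts below keep CDH1-A, since its name matches, and are given without it where it matters.

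Of the 67 genes, 36 had at least 1 RPKM in at least 2 libraries and were tested. The untested 31 were at or below 0.975 RPKM in every library except CLDN10, a claudin that had 0.912 and 2.00 RPKM in the anterior libraries and 0.451 and 0.785 RPKM in the posterior libraries. They were 9 cadherins, 10 claudins, 5 protocadherins, 5 connexins, CADM2 and CTNNA3, the alpha catenin of heart muscle. The most abundant gene was GJA1, a connexin of mesenchymal and epithelial cells, which ranked 107 among all 15386 genes by its mean of 539 RPKM. GJB6 and PKP1 were the other 2 genes with a mean over 100 RPKM, at 139 and 118 RPKM.

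**Figure D1:**
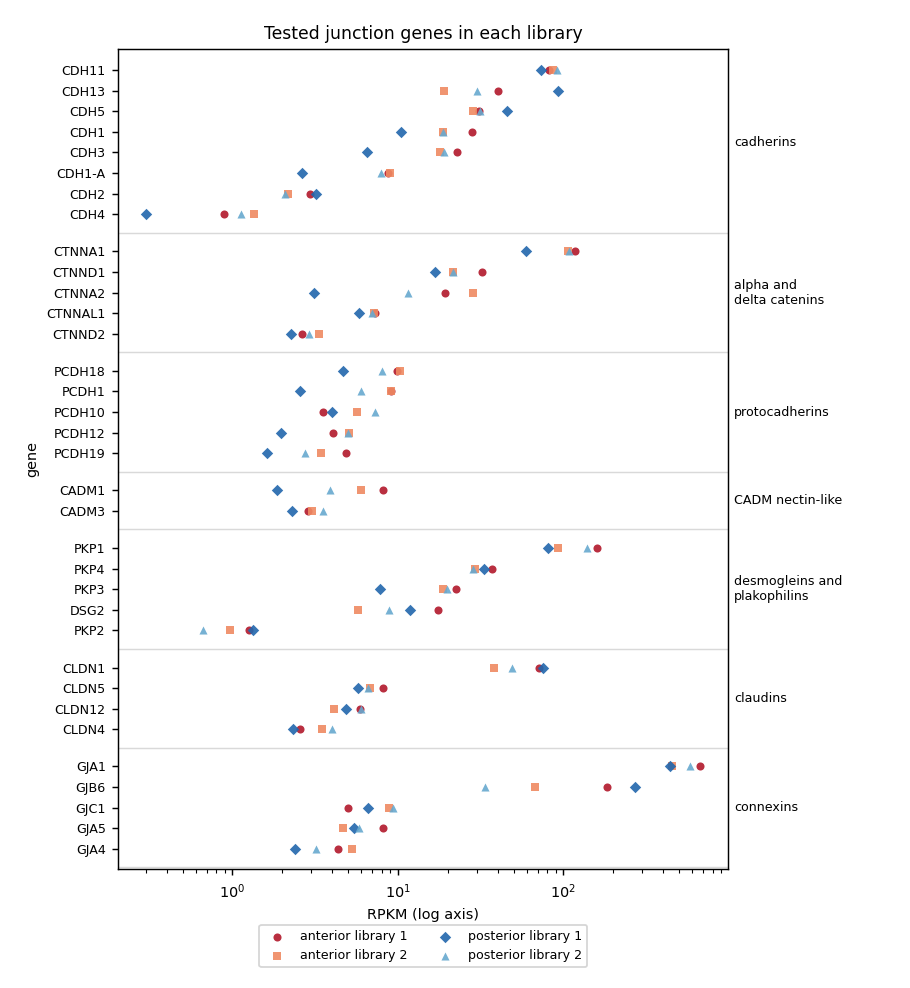
RPKM (log axis) of 34 of the 36 tested genes, by family and in order of their mean, with 1 point for each of the 4 libraries (circles and squares, anterior; diamonds and triangles, posterior). Levels run from 0.3004 RPKM for CDH4 in posterior library 1 to 672 RPKM for GJA1 in anterior library 1, and posterior library 1 is the lowest of the 4 for 22 of the genes drawn.

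The sides were compared to ask which junction genes are unlike in anterior and posterior papillae. A catenin, a nectin-like protein and a protocadherin stood higher on the anterior side in both libraries, by at least 2-fold on the log2 scale: CTNNA2, CADM1 and PCDH1. After median ratio scaling or quantile normalization CTNNA2 alone of the 3 was still past 2-fold, with CADM1 at 0.99 and 0.93 and PCDH1 at 0.90 and 0.86, and without posterior library 1 none of the 3 was. None of the 36 genes passed limma at an adjusted p under 0.05, against 0% of all 10939 genes tested, and the smallest adjusted p was 0.964 among the 36 as among all. At an unadjusted p under 0.05, 3 of 36 genes (8.33%) were higher in anterior tissue, against 0.713% of all genes, and 0 were higher in posterior tissue, against 0.229%. These were CTNNA2, CADM1 and PCDH1. With at least a 2-fold difference and no overlap of the libraries, the same 3 of 36 genes were higher in anterior tissue, against 0.640% of all genes, and 0 in posterior tissue, against 0.192%. An exact two-sided permutation test of 2 libraries against 2 has 0.333 as its smallest p.

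Without regard to size, 12 of 36 genes (33.3%) had both anterior libraries above both posterior libraries, against 18.9% of all genes, and 1 gene (2.78%), CDH5, had both posterior libraries above both anterior, against 7.25%. Differences were positive for 27 of 36 genes, with a median of 0.16, and for 64.6% of all genes, with a median of 0.11. Median ratio scaling, which centres the typical gene by its construction, put the median over all genes at -0.0057. After it 21 of the 36 genes were positive, with a median of 0.042, and after quantile normalization 22, with a median of 0.080. The 12 genes with anterior libraries above posterior had a median difference of 0.65, which was 0.29 without posterior library 1.

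**Figure D2:**
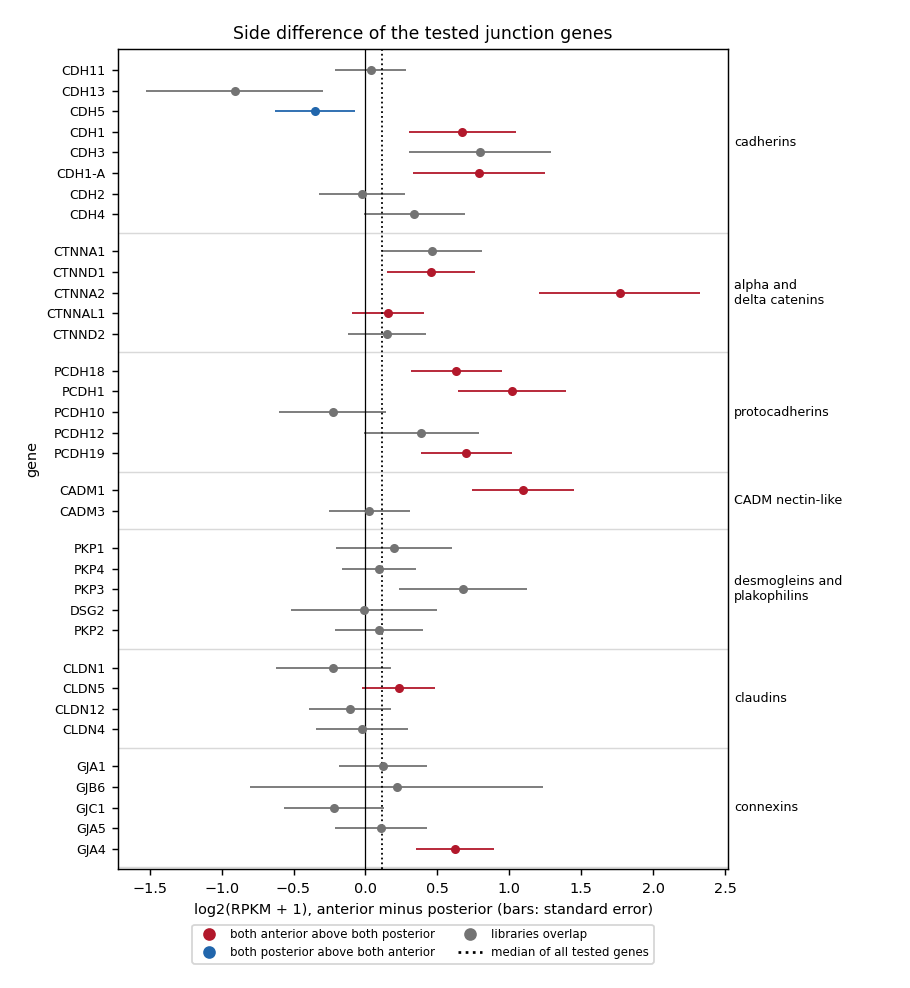
Difference between the sides for 34 of the 36 tested genes, as log2(RPKM + 1) in anterior minus posterior libraries, with standard errors from limma. Red points have both anterior libraries above both posterior libraries (11 genes), the blue point the reverse (CDH5), and the dotted line marks the median of all tested genes at 0.11. CTNNA2 lies farthest to the right at 1.77 and CDH13 farthest to the left at -0.91.

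Alpha catenins link the cadherin complex to actin, and delta catenins bind the cadherin tail and keep it at the cell surface. All 5 tested members of this family had positive differences (4 after quantile normalization), against 64.6% of all genes. In 3 of them the anterior libraries were above the posterior ones, against 18.9% of all genes. The median was 0.46, or 0.34 relative to all genes. Over the 4 ways of leaving out 1 library it was 0.034 (without posterior library 1) to 0.63 (without posterior library 2). Relative to all genes under the same omissions it was 0.011 and 0.41. CTNNA2, the alpha catenin best known from neurons, had 19.4 and 28.3 RPKM in the anterior libraries, against 3.12 and 11.5 RPKM in the posterior libraries. Every anterior value thus exceeded every posterior value, and posterior library 1 had 15.8% of the mean of the other 3. The difference was 1.77 (SE 0.56, limma, adjusted p = 0.964), or 3.26-fold between the means. It was 0.96 without posterior library 1 and 2.57 without posterior library 2, where posterior library 1 was the lone posterior library.

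CTNNA1, the general alpha catenin, had 117 and 106 RPKM in the anterior libraries, against 59.4 and 109 RPKM in the posterior libraries. These groups overlap, since posterior library 2 matched the anterior side and posterior library 1 alone was low. CTNNA1 was the more abundant of the pair in every library. CTNND1, which stabilises cadherins at the membrane, had 32.3 and 21.602 RPKM on the anterior side and 16.7 and 21.593 RPKM on the posterior side, with anterior library 2 and posterior library 2 almost level. CTNND2, a neural delta catenin, stayed between 2.27 and 3.31 RPKM and CTNNAL1, a relative of the alpha catenins, between 5.78 and 7.26 RPKM.

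CADM proteins are adhesion molecules of the immunoglobulin superfamily. CADM1 had 8.11 and 5.99 RPKM in the anterior libraries, against 1.85 and 3.90 RPKM in the posterior libraries, with no overlap. Its difference was 1.09 (SE 0.36, limma, adjusted p = 0.964), or 2.45-fold between the means, which were 7.05 ± 1.5 RPKM on the anterior side and 2.88 ± 1.45 RPKM on the posterior side (SD, 2 libraries each). Without posterior library 1 it was 0.70. CADM3, a member best known from the nervous system, had 2.84 and 3.005 RPKM on the anterior side and 2.29 and 3.50 RPKM on the posterior side, and its sides overlapped. CADM2 was at or below 0.104 RPKM throughout.

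Protocadherins are single cadherin chains that mediate weak adhesion and cell sorting. The 5 that were tested had the highest family median, 0.63, or 0.52 relative to all genes. Of these, 4 had positive differences, against 64.6% of all genes, and 3 had anterior libraries above posterior ones, against 18.9%. Under median ratio scaling the median was 0.51, and with 1 library left out it was 0.29 (without posterior library 1) to 0.96 (without posterior library 2). Relative to all genes under the same omissions it was 0.27 and 0.74. PCDH1 had 9.04 and 9.12 RPKM in the anterior libraries, against 2.56 and 5.95 RPKM in the posterior libraries. The anterior libraries were nearly identical for this gene, and the posterior ones differed from each other. Its difference was 1.02 (SE 0.38, limma, adjusted p = 0.964), a 2.13-fold ratio of the means, and 0.54 without posterior library 1.

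PCDH18 followed with 9.83 and 10.30 RPKM in the anterior libraries, against 4.63 and 8.05 RPKM in the posterior libraries, with a difference of 0.63 (SE 0.32). PCDH19, which works with CDH2 in cell sorting, had 4.84 and 3.42 RPKM on the anterior side and 1.61 and 2.75 RPKM on the posterior side, with a difference of 0.70 (SE 0.32). Both genes kept their libraries apart by side, neither reached an unadjusted p under 0.05, and without posterior library 1 their differences were 0.29 and 0.44. PCDH10 went the other way between means, with 3.51 and 5.65 RPKM in the anterior libraries, against 3.97 and 7.28 RPKM in the posterior libraries, and its sides overlapped. PCDH12, a protocadherin of endothelium, had 4.03 and 5.06 RPKM on the anterior side and 1.95 and 5.01 RPKM on the posterior side, so that posterior library 1 alone was low. PCDH10 and PCDH18 are neighbouring genes in the RefSeq annotation, yet only PCDH18 had separate sides. Whether their differences differ from each other was not tested.

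**Figure D3:**
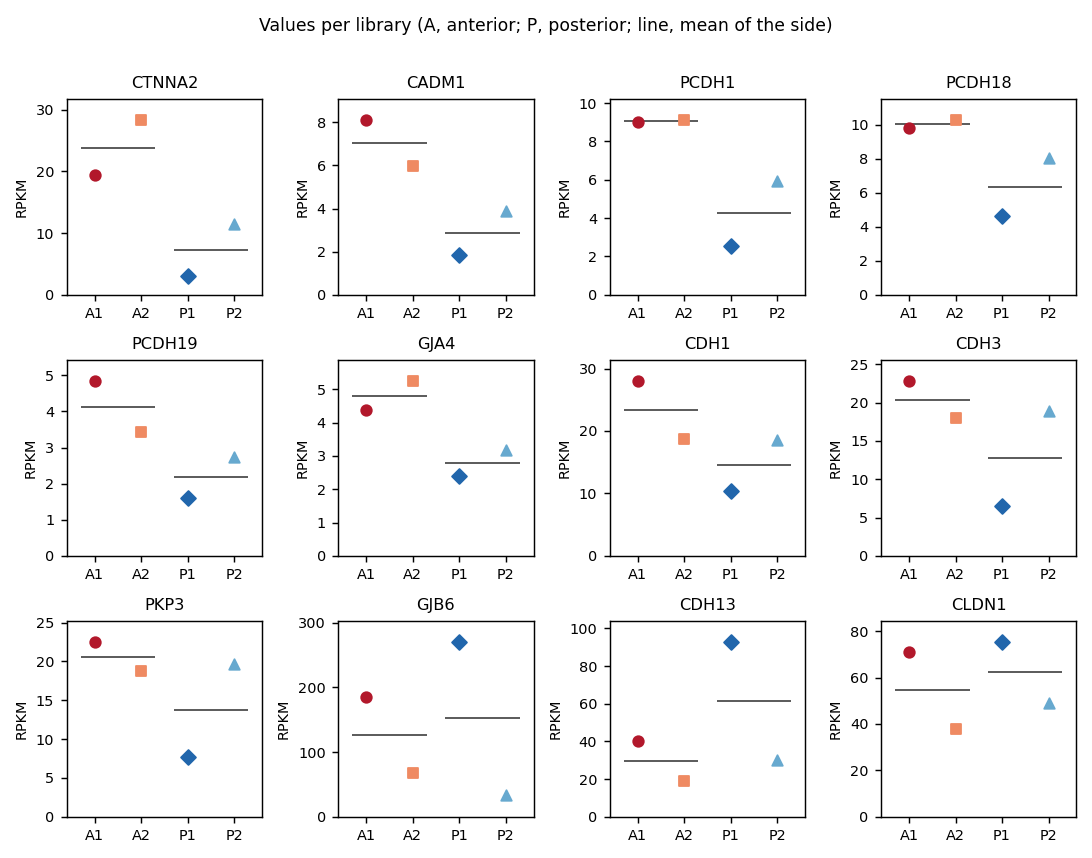
RPKM of 12 genes in each library, with a line at the mean of each side and an axis that starts at 0. CTNNA2, CADM1, PCDH1, PCDH18, PCDH19 and GJA4 have both anterior libraries above both posterior libraries, CDH3 and PKP3 are low in posterior library 1 alone, and GJB6, CDH13 and CLDN1 are higher in library 1 than in library 2 on each side.

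CDH1, or E-cadherin, the main adherens junction cadherin of epithelium, had 28.02 and 18.66 RPKM in the anterior libraries, against 10.4 and 18.63 RPKM in the posterior libraries. Its sides were separate only by the small gap between anterior library 2 and posterior library 2. CDH3, or P-cadherin, of basal epithelium and hair follicles in mammals, had 22.9 and 17.96 RPKM on the anterior side and 6.51 and 19.0 RPKM on the posterior side, and its sides overlapped. CDH1 and CDH3 are neighbours in the genome annotation and were both lowest in posterior library 1 and highest in anterior library 1. Their differences were 0.67 (SE 0.37) and 0.80 (SE 0.49), and the adjusted limma p was 0.964 for both. Without posterior library 1 the differences were 0.28 for CDH1 and 0.090 for CDH3.

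CDH5, or VE-cadherin, which joins endothelial cells, was the gene with posterior libraries above anterior ones. It had 30.7 and 28.3 RPKM in the anterior libraries, against 45.5 and 31.5 RPKM in the posterior libraries, with a difference of -0.35 (SE 0.28, limma, adjusted p = 0.964). The gap between the highest anterior and the lowest posterior library was under 1 RPKM, and the difference was -0.092 without posterior library 1. Another endothelial marker, PECAM1, had 39.2 and 33.5 RPKM on the anterior side and 70.1 and 40.5 RPKM on the posterior side, and was likewise highest in posterior library 1. KDR, an endothelial receptor, had 4.54 and 5.38 RPKM on the anterior side and 2.42 and 4.78 RPKM on the posterior side. Of the 10 endothelial markers, 6 were lowest and 3 highest in posterior library 1, against 54.5% and 26.5% of all genes. Differences were positive for 7 of the 10 (5 after median ratio scaling) and negative for 3, so these markers did not share an order of the libraries. Their part in the CDH5 difference was not tested.

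CDH11, a cadherin of mesenchymal cells, was the most abundant cadherin by its mean and varied little, with 81.4 and 87.1 RPKM in the anterior libraries, against 73.6 and 91.7 RPKM in the posterior libraries. Its difference was 0.035 (SE 0.25). CDH2, or N-cadherin, of mesenchyme and nerve, stayed between 2.08 and 3.21 RPKM. CDH4, or R-cadherin, passed the filter narrowly, with 0.893 and 1.34 RPKM in the anterior libraries, against 0.3004 and 1.13 RPKM in the posterior libraries.

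CDH13, or T-cadherin, which has no cytoplasmic tail and sits in the membrane by a lipid anchor, had the largest negative difference of the 36 genes. It had 40.1 and 19.1 RPKM in the anterior libraries, against 92.9 and 30.0 RPKM in the posterior libraries. The sides overlapped, because posterior library 2 lay below anterior library 1. The difference was -0.91 (SE 0.62, limma, adjusted p = 0.964), and without posterior library 1 it was -0.11. CDH13 is known from smooth muscle and endothelium in mammals, and the smooth muscle markers were highest in the same library. Their part in this value was not tested.

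CDH1-A, the gene that RefSeq pairs with FZR1, had 8.67 and 9.01 RPKM in the anterior libraries, against 2.62 and 7.95 RPKM in the posterior libraries. With it the 8 tested cadherin names had a median difference of 0.19, and without it the remaining 7 had a median of 0.035. With all 8, the median was 0.037 without posterior library 1 and 0.44 without posterior library 2. Relative to all genes under the same omissions it was 0.014 and 0.22. Without CDH1-A, 26 of 35 genes were positive and 11 had anterior libraries above posterior ones, against 64.6% and 18.9% of all genes.

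Desmosomes join epithelial cells, and their plaque is built from plakophilins under the desmosomal cadherins. All 5 genes of this family were tested, and the median difference was 0.097, or -0.017 relative to all genes. The sides overlapped for all 5, while 18.9% of all genes had anterior libraries above posterior ones and 7.25% the reverse. With 1 library left out the median was -0.065 (without anterior library 1) to 0.59 (without anterior library 2). PKP1, a plakophilin of stratified epithelium, had 160 and 92.3 RPKM in the anterior libraries, against 80.5 and 139 RPKM in the posterior libraries. PKP3, another epithelial plakophilin, had 22.5 and 18.7 RPKM on the anterior side and 7.75 and 19.7 RPKM on the posterior side, and was low in posterior library 1 alone. PKP4, which is also found at adherens junctions, varied least, with 36.8 and 29.2 RPKM on the anterior side and 32.9 and 28.5 RPKM on the posterior side.

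DSG2, the one desmoglein, differed most in its family between libraries of 1 side, with 17.4 and 5.70 RPKM in the anterior libraries against 11.8 and 8.78 RPKM in the posterior libraries. PKP2 stayed between 0.663 and 1.34 RPKM. These genes did not share 1 order of the libraries: PKP3 was lowest and PKP2 highest in posterior library 1, and PKP4 was above its posterior library 2 value there. Of the 15 epithelial markers, 7 were lowest and 2 highest in posterior library 1, against 54.5% and 26.5% of all genes. Differences were positive for 13 of the 15 (11 after median ratio scaling), against 64.6% of all genes, with a median of 0.32. Without posterior library 1, 13 were positive with a median of 0.21, and without anterior library 1, 6 were positive with a median of -0.062. The part of these markers in the values above was not tested.

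Claudins form the strands of tight junctions, and only 4 of 14 were tested. CLDN1, the main claudin of the epidermal barrier, made up 68.5% to 84.2% of the summed claudin level in the libraries. It had 71.1 and 37.9 RPKM in the anterior libraries, against 75.4 and 49.0 RPKM in the posterior libraries, with a difference of -0.22 (SE 0.40). Library 1 was thus above library 2 on each side by more than the sides differed. CLDN5, a claudin of endothelium, had 8.11 and 6.75 RPKM on the anterior side and 5.78 and 6.57 RPKM on the posterior side. CLDN4, of epithelia, stayed between 2.32 and 3.99 RPKM and CLDN12 between 4.11 and 6.003 RPKM. The family median was -0.067, or -0.18 relative to all genes, and with 1 library left out it was -0.10 (without anterior library 1) to 0.16 (without anterior library 2).

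Connexins differed widely in level. Of the 7 tested, 5 overlapped between the sides and 2 had anterior libraries above posterior ones, against 18.9% of all genes. The median difference of the connexins was 0.12, with 6 genes positive, and -0.014 with 3 positive after median ratio scaling. With 1 library left out it was -0.16 (without anterior library 1) to 0.45 (without anterior library 2). GJA1 had 672 and 456 RPKM in the anterior libraries, against 441 and 586 RPKM in the posterior libraries. Its sides overlapped, with a difference of 0.12 and a standard error of 0.31, and it made up 59.1% to 89.5% of the summed connexin level. GJB6, a connexin of skin epithelium, was the least even gene of the set, with 184 and 67.4 RPKM in the anterior libraries, against 270 and 33.6 RPKM in the posterior libraries. Posterior library 1 had 8.04 times the level of posterior library 2, and anterior library 1 had 2.74 times that of anterior library 2. Its difference of 0.22 had a standard error of 1.02, was 1.702 without posterior library 1 and -1.27 without posterior library 2, so its direction turned with the library left out.

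GJA4, a connexin of arterial endothelium, had 4.37 and 5.25 RPKM on the anterior side and 2.39 and 3.19 RPKM on the posterior side. This was the one connexin with a separation of more than 0.5, a difference of 0.62 (SE 0.27, limma, adjusted p = 0.964). Without posterior library 1 its difference was 0.47. GJA5, also of arteries, stayed between 4.65 and 8.11 RPKM, and GJC1 between 4.98 and 9.40 RPKM.

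Over the 36 genes, posterior library 1 was the lowest library for 23 (63.9%), against 54.5% of all tested genes, and the highest for 6 (16.7%), against 26.5%. In 11 genes (30.6%) it had less than 50% of the mean of the other 3 libraries, against 16.6% of all genes. Those 11 were CTNNA2, CADM1, PCDH1, PCDH12, PCDH18, PCDH19, CDH1, CDH3, CDH4, PKP3 and CDH1-A. The 3 genes that led the anterior side are thus among those low in that library, and so are CDH1 and CDH3, whose level in posterior library 2 was close to that in anterior library 2. These counts were chosen after the values had been seen. The lower depth of that library and its smooth muscle markers were present beside them, and their part was not tested.

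**Figure D4:**
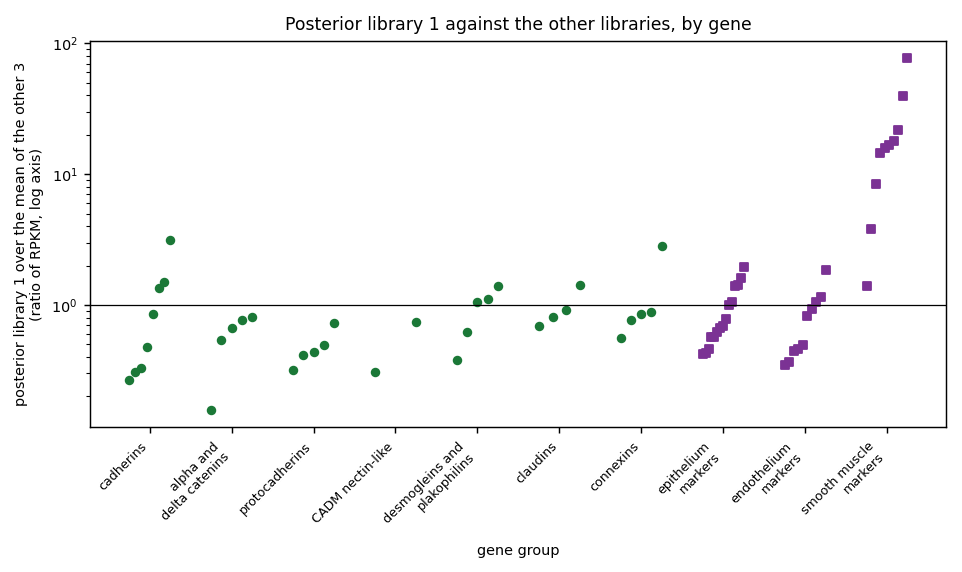
Ratio of the RPKM in posterior library 1 to the mean of the other 3 libraries (log axis), with 1 point for each gene of a family (circles, 34 of the 36 tested) or tested gene of a marker list (squares). Most junction genes lie below 1, with CTNNA2 lowest at 0.158, CDH13 and GJB6 lie at 3.13 and 2.84, and all 10 smooth muscle markers lie above 1. The median RPKM over all genes was also lowest in posterior library 1, at 3.75, against 4.62 to 4.88 in the other libraries.

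Differences between libraries 1 and 2 that ran alike on each side made up the other pattern. CDH13, CLDN1 and GJB6 had at least 1.5 times the level in library 1 on both sides, 3 of 36 genes (8.33%) against 4.41% of all genes. CDH4 and PCDH10 had at least 1.5 times the level in library 2 on both sides, 2 of 36 genes (5.56%) against 5.38%. The epithelial keratin KRT75 had the same pattern as GJB6, with 447 and 114 RPKM in the anterior libraries, against 423 and 89.3 RPKM in the posterior libraries. KRT5 did not, with 796 and 216 RPKM on the anterior side and 182 and 266 RPKM on the posterior side. The numbers 1 and 2 come from the column names, and no label says what the libraries of a number share.

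**Figure D5:**
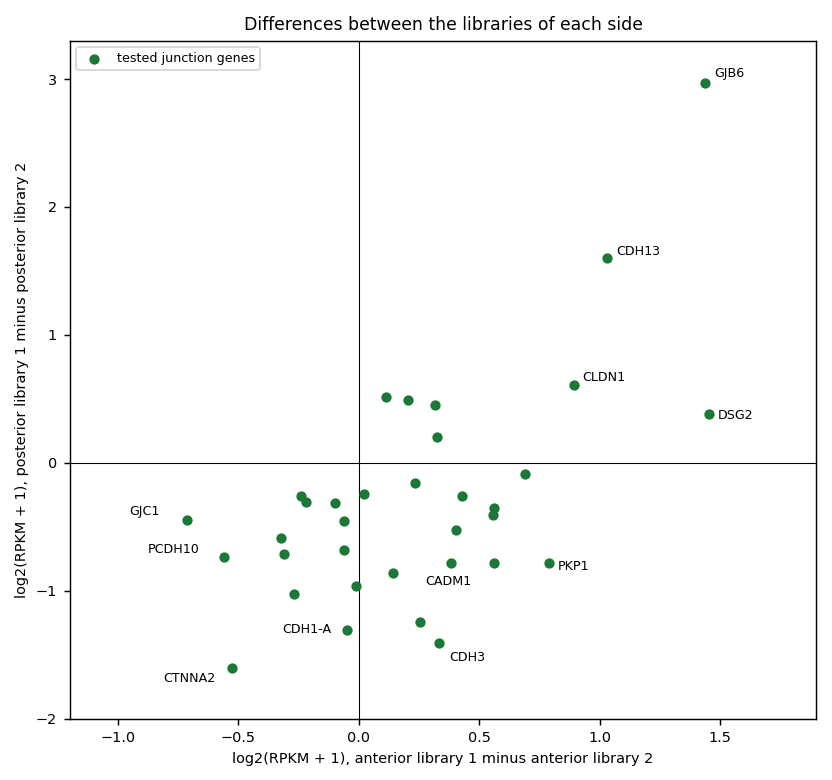
Difference in log2(RPKM + 1) between libraries 1 and 2 of the anterior side (horizontal axis) and of the posterior side (vertical axis), with 1 point for each of 34 of the 36 tested genes. GJB6, CDH13 and CLDN1 lie in the upper right, above 0 on both axes, and CTNNA2 in the lower left.

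Some of the genes were also summed by the cells they are best known from. The 8 genes of epithelium (CDH1, CDH3, PKP1, PKP3, DSG2, CLDN1, CLDN4 and GJB6) were highest in anterior library 1 in 5 cases. In posterior library 1, 5 of the 8 were lowest and 2 highest, against 54.5% and 26.5% of all genes. The summed level of the 8 was 509 and 262 RPKM in the anterior libraries, against 465 and 292 RPKM in the posterior libraries. GJB6 varied most in the sum and gave 270 RPKM of it in posterior library 1. The 5 genes of endothelium (CDH5, CLDN5, GJA4, GJA5 and PCDH12) summed to 55.3 and 50.04 RPKM on the anterior side and 61.1 and 52.1 RPKM on the posterior side. CDH5 gave 30.7 and 28.3 RPKM of the anterior sums and 45.5 and 31.5 RPKM of the posterior sums. Of the 5, 3 were lowest and 1 highest in posterior library 1, against 54.5% and 26.5% of all genes. In 4 of the 5 the difference was positive, against 64.6% of all genes. The 3 genes of mesenchyme (CDH2, CDH11 and GJA1) summed to 756 and 546 RPKM on the anterior side and 518 and 680 RPKM on the posterior side. GJA1, which epithelial cells also express, gave 672 and 456 RPKM of the anterior sums and 441 and 586 RPKM of the posterior sums. That sum thus mostly follows GJA1, while CDH11 stayed between 73.6 and 91.7 RPKM. In each group the sums of the sides overlapped. These groups were made with the values known.

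The partners of these genes outside the name rule were read in the same fit. CTNNB1, or beta-catenin, which binds classical cadherins and carries WNT signals, had 397 and 332 RPKM in the anterior libraries, against 216 and 330 RPKM in the posterior libraries. JUP, or plakoglobin, its relative in desmosomes, had 241 and 154 RPKM on the anterior side and 142 and 214 RPKM on the posterior side. DSP, or desmoplakin, which anchors keratin filaments, had 319 and 233 RPKM on the anterior side and 232 and 316 RPKM on the posterior side, and PERP, a desmosomal membrane protein, 228 and 157 RPKM on the anterior side and 233 and 194 RPKM on the posterior side. Of 15 other adherens junction genes, 7 were positive and 8 negative, with a median of -0.0098, which was -0.13 after median ratio scaling and -0.17 (without anterior library 1) to 0.25 (without anterior library 2) with 1 library left out. Without posterior library 1, 12 of the 15 were positive, with a median of 0.14. Of 5 other desmosome genes 3 were positive (2 after median ratio scaling), with a median of 0.011, which was -0.21 to 0.23 over the same omissions. Of 17 tested tight junction genes 12 were positive (10 after median ratio scaling), with a median of 0.14, which was 0.018 after that scaling and -0.053 to 0.30 with 1 library left out. None of these 3 lists thus kept 1 direction.

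JAM3, a junctional adhesion molecule, had 63.0 and 48.4 RPKM in the anterior libraries, against 52.0 and 53.3 RPKM in the posterior libraries. TJP1, the scaffold beneath tight junctions, had 30.5 and 22.5 RPKM on the anterior side and 34.2 and 24.1 RPKM on the posterior side. All 3 pannexins, channel proteins related in fold to connexins, were positive (2 after median ratio scaling or quantile normalization), with a median of 0.54, which was 0.11 with 2 positive without posterior library 1. PANX2 had 11.1 and 15.8 RPKM on the anterior side and 3.65 and 15.1 RPKM on the posterior side. PANX1 had 2.43 and 1.23 RPKM on the anterior side and 1.87 and 1.57 RPKM on the posterior side, with a difference of 0.025 (SE 0.32). PANX3, named after its values were seen, had 2.01 and 2.24 RPKM on the anterior side and 1.21 and 1.08 RPKM on the posterior side, and was the one pannexin whose sides did not overlap.

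Among the atypical cadherins 6 of 7 tested genes were positive, against 64.6% of all genes, with a median of 0.53. Without posterior library 1 the median was 0.16 with 5 positive, and without posterior library 2 it was 1.02. FAT2, a giant cadherin of epidermis, had 3.36 and 2.48 RPKM in the anterior libraries, against 0.676 and 1.60 RPKM in the posterior libraries, without overlap. Its difference was 0.90 (SE 0.33, limma, adjusted p = 0.964). FAT1 had 14.7 and 9.27 RPKM on the anterior side and 13.7 and 10.4 RPKM on the posterior side, and CLSTN3, a calsyntenin, had 8.19 and 6.82 RPKM on the anterior side and 3.11 and 5.63 RPKM on the posterior side. None of the 47 tested genes in these 5 lists passed after adjustment over all genes. FAT2 was the one with an unadjusted limma p under 0.05, against 0.713% of all genes higher in anterior tissue. In posterior library 1, 6 of the 7 atypical cadherins were at their lowest, against 54.5% of all genes.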

How the data were processed

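The authors deposited 1 table of RPKM per gene, whose name gives Ensembl release 78 as its annotation. Per the submitters' processing notes, TopHat2, Partek and the chicken build galGal4 were used; versions and the way reads were counted are not given in the sources used here. RPKM are not counts, so no count test was run.

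A gene entered the test if 2 or more libraries reached 1 RPKM. Tests ran on log2(RPKM + 1), a pseudocount of 1, with limma 3.58.1 (trended eBayes, two-sided, Benjamini-Hochberg over all 10939 genes, called at an adjusted p under 0.05) in R 4.3.3, with anterior against posterior as the only term. Every adjusted p in the text is from this model unless a library left out or the replicate block is named with it. The fit was also run on simulated data whose spread was taken from the anterior libraries alone, so that run does not cover the spread of the posterior side. Tables and figures were made in Python 3.11.15 with matplotlib 3.10.9. Symbols and gene neighbours were looked up in the RefSeq table of assembly GRCg7b. Its coordinates were used only to put the protein-coding genes in order.

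Genes and lists were chosen with earlier results of these data known. Genes picked for values in every library were the 4 most abundant of each family and the 6 with the largest ratio within a side. So were those past 2-fold without overlap or at an unadjusted p under 0.05, and the top 2 of each list of other junction genes. Among them CLDN4, CLDN12 and CTNNAL1 were given by their range and CADM2 by its highest value. Further genes were named after their values were seen. Alternatives were other pseudocounts (0.1 and 0.5), no filter or 5 RPKM, quantile normalization, scaling by median ratios, an untrended eBayes, a replicate block and leaving out each library. The number of reads in each library is unknown, so no counting interval is given. A few of the tested genes are counted in the totals but are not reported here by name or drawn.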

Additional observations from a re-analysis of the deposited data

How the results depend on the processing

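The count of genes with an adjusted limma p under 0.05 was 0 under every alternative with all 4 libraries except the replicate block, where it was 2, none of them among the 36. Leaving out 1 library in turn gave 0 to 226 genes in all and 0 to 1 of the 36; the 1 was CTNNA2 without posterior library 2, where the lone posterior library is assumed to vary like the anterior ones. The count at an unadjusted p under 0.05, 3 in the report, was 6 with the replicate block (CADM1, CDH1-A, CDH13, CTNNA2, PCDH1 and PCDH19) and 2 to 14 with a library left out. Over all 10939 genes the count at an unadjusted limma p under 0.05 was 103 in the report and 617 with the replicate block. The 14 came without posterior library 2, where the count over all genes rose as well. That fit has a lone posterior library, so the 14 is not read as a result of the junction genes. At least 2-fold higher in anterior tissue were 1 gene after median ratio scaling and 1 after quantile normalization, CTNNA2 in both. CADM1 came to 0.99 and 0.93 and PCDH1 to 0.90 and 0.86. With a library left out the count at 2-fold was 1 to 7, and the 1 without posterior library 1 was GJB6. No gene of the 36 was at least 2-fold higher in posterior tissue without overlap under any setting with all 4 libraries. Of all genes tested, 15 (filter of 5 RPKM) to 42 (pseudocount of 0.1) were. With a library left out, CDH13 came to -1.42 (without anterior library 1) and -1.71 (without posterior library 2). GJB6 came to -1.27 without posterior library 2. The median difference over the 36 genes was 0.086 (without posterior library 1) to 0.374 (without anterior library 2) with a library left out. That over all genes moved as well, from 0.023 (without posterior library 1) to 0.22 (without posterior library 2). Without anterior library 1 the medians of the desmosomal genes and the connexins were -0.065 and -0.16, and without anterior library 2 they were 0.59 and 0.45; the claudin median was 0.16 without anterior library 2 and 0.15 without posterior library 2. The cause of these changes was not tested.

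The replicate block used the numbers 1 and 2 of the column names. Differences between libraries 1 and 2 correlated between the sides over 10939 genes with r = 0.49, across genes that are not independent replicates, and no label says that a number marks a shared bird or day. The smallest adjusted p of the 36 genes with the block was 0.203, for CTNNA2. Without CDH1-A, chosen as an alternative after seeing the data, the counts at an unadjusted p under 0.05 and at 2-fold were still 3. With 2 libraries a side, 1 of them unlike the rest, the precision is set by the number of libraries.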
